A study of Rattus norvegicus with 9 samples.

Results

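Hmox1 and Glrx were the genes examined here, across 9 rat tongue samples. Their members were all probe sets whose only gene symbol in the platform annotation is Hmox1 or Glrx. There was 1 such probe set for Hmox1 (1370080_at) and there were 2 for Glrx (1386908_at and 1367705_at). These are 3 of the 31042 probe sets and 2 of the 14217 genes with a single symbol on the array. The genes were chosen because their values on these same arrays were lower after 4NQO than in normal tongue and higher again with IL-1Ra. Their levels in the 3 groups are therefore given as a description, with no test.

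RNA was taken from tongue tissue of male Sprague-Dawley rats, and 3 samples in each of 3 groups were hybridised to Affymetrix rat expression arrays. The normal group received no carcinogen. In the 4NQO group the carcinogen 4-nitroquinoline oxide (4NQO), which binds DNA and causes dysplasia and then carcinoma of the oral epithelium, was given at 0.002% in the drinking water. The IL-1Ra group received 4NQO and the interleukin-1 receptor antagonist (IL-1Ra), which blocks the IL-1 receptor. The labels place the killing of 4NQO-treated rats with lesions between week 14 and week 22, whereas the study's methods describe a course of 4NQO, then weekly injections of IL-1Ra under the tongue mucosa until the end of week 22. In that account the 4NQO group received saline by the same route, and no injection of the normal group is described. No genetic change is named for any group, and neither the rats' ages nor the stage of the lesion in each sample was stated. Epithelia and fibroblasts are named in the series' design text, while the samples are labelled as tongue tissue. Arrays are numbered 1 to 3 within a group in the order of their records, and equal numbers do not pair them.

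Hmox1 encodes haem oxygenase 1, the inducible enzyme that opens the ring of haem and releases biliverdin, carbon monoxide and iron. Its transcription is raised by NRF2 (Nfe2l2) together with small MAF proteins, and repressed by BACH1, which haem itself removes from DNA. Glrx encodes glutaredoxin 1, a small cytosolic enzyme that uses glutathione to reduce mixed disulfides and so strips glutathione from proteins. Both enzymes belong to the defence of epithelial and other cells against oxidants, and Hmox1 is also strongly expressed by macrophages that take up red cells.

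Because the 2 genes were chosen for moving together, the promoter of the one found in the RefSeq promoter table of assembly GRCr8 (Glrx, 1 of 2) is shown as background. It spans chr2:7073545-7073736 on the plus strand, directly upstream of the annotated gene start, and capitals mark the AP-1 motif TGACTCA.
Glrx promoter: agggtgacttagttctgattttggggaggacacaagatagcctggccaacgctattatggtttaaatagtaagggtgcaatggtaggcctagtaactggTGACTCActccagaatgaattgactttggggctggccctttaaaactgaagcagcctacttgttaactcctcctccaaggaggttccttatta
The motif starts 93 bases before the gene start. Searched on both strands, it was present in 3.19% of 33469 promoter windows. The core of the antioxidant response element through which NRF2 acts (TGACNNNGC), present in 7.33% of the windows, had 0 matches in this stretch. The CCAAT box (CCAAT, in 27.7% of windows), the TATA box (TATAAA, 9.63%), the E-box (CACGTG, 3.92%) and the GC box (GGGCGG, 22.9%) also had 0 matches. A match of letters is not evidence of binding, and its absence says only that these letters are not in this window.

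Over all probe sets the arrays correlated with each other at 0.967 to 0.995, no pair held identical values, and the median intensity per array was 37.5 to 38.6. By limma with Benjamini-Hochberg adjustment over all probe sets, 2922 probe sets (9.41%) were higher and 1688 (5.44%) lower in 4NQO than in normal samples. Quantile normalization of the same values changed this split to 1463 and 1358, and cyclic loess normalization to 1182 and 1298. For IL-1Ra against 4NQO 495 (1.59%) were higher and 227 (0.731%) lower, or 535 and 168 after quantile and 585 and 147 after cyclic loess normalization. For IL-1Ra against normal, 413 (1.33%) were higher and 168 (0.541%) lower, or 94 and 109 after quantile and 34 and 63 after cyclic loess normalization. The labels do not say that the samples came from separate animals, so that these tests measure the spread between samples. In bulk tissue, fewer cells of a type and less RNA per cell cannot be told apart. As a sign of RNA quality, the 3′ probe set of beta-actin exceeded the 5′ one by 0.74 to 0.86 log2 on normal, 1.07 to 1.29 on 4NQO and 0.98 to 1.27 on IL-1Ra arrays. For GAPDH the ranges were 0.23 to 0.30, 0.31 to 0.43 and 0.26 to 0.28, and for hexokinase 1.47 to 1.53, 1.29 to 1.78 and 1.80 to 2.20, so the controls set different groups apart. The part of these differences in the levels below was not tested.

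Hmox1 was lower on the 4NQO than on the normal arrays and lay within the normal range on the IL-1Ra arrays. Its intensity was 711, 414 and 501 on normal arrays 1 to 3. On 4NQO arrays 1 to 3 it was 168, 152 and 181. On IL-1Ra arrays 1 to 3 it was 636, 609 and 572. Every 4NQO array lay below every array of both other groups, and the 3 IL-1Ra arrays lay within the range of the normal arrays. The mean log2 intensity was 9.05 ± 0.40 (SD, n = 3) in normal, 7.38 ± 0.13 in 4NQO and 9.24 ± 0.08 in IL-1Ra samples.

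The difference between 4NQO and normal was -1.66 log2, a 3.17-fold lower level, and single pairs of arrays differed by 2.29- to 4.67-fold. IL-1Ra exceeded 4NQO by 1.86 log2, or 3.63-fold, with array pairs between 3.16- and 4.18-fold. This difference was 17.9 times the pooled SD of the 2 groups, and the difference of 4NQO from normal 5.67 times. Hmox1 was chosen for these differences and each SD rests on 3 arrays, so nothing is read from these multiples. Between IL-1Ra and normal the difference was 0.20 log2 (1.15-fold), which is 0.689 times the pooled SD, and the arrays overlapped. Normal array 1 alone was above all IL-1Ra arrays, and without normal array 1 the difference between IL-1Ra and normal was 0.41 log2. Without normal array 2, the lowest, it was 0.02 log2. The lower spread among the IL-1Ra than among the normal arrays is a description of 3 arrays each and was not tested.

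**Figure D1:**
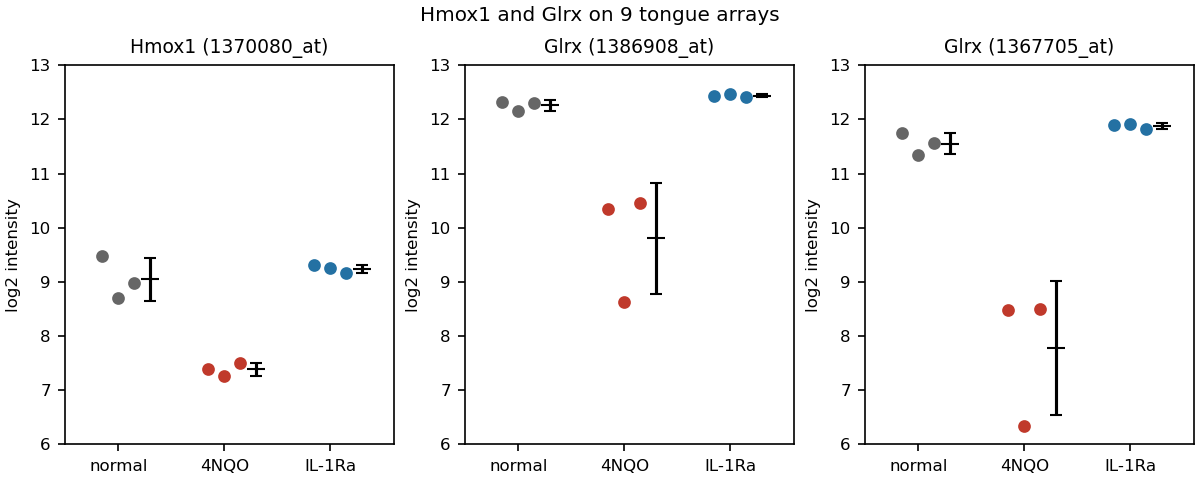
Log2 intensity of the Hmox1 probe set and both Glrx probe sets on each of the 9 arrays, by group (normal, 4NQO, IL-1Ra). Points are arrays and horizontal bars with whiskers are group means with SD (n = 3). For all 3 probe sets the 4NQO arrays lie below the other groups, and Glrx on 4NQO array 2 (8.62 log2 for 1386908_at) lies below 4NQO arrays 1 and 3.

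Glrx followed the same course with larger differences and a wider spread among the 4NQO arrays. The probe set with the higher mean, 1386908_at, gave intensities of 5118, 4544 and 5043 on normal arrays 1 to 3. On 4NQO arrays 1 to 3 it gave 1298, 393 and 1402. On IL-1Ra arrays 1 to 3 it gave 5562, 5680 and 5438. Neither comparison with 4NQO showed any overlap, and 4NQO array 2 stood well below the other 4NQO arrays. Mean log2 intensity was 12.26 ± 0.09 (SD, n = 3) in normal, 9.80 ± 1.03 in 4NQO and 12.44 ± 0.03 in IL-1Ra samples.

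Glrx was thus 2.45 log2, or 5.47-fold, lower in 4NQO than in normal samples (array pairs 3.24- to 13.03-fold). IL-1Ra exceeded 4NQO by 2.64 log2, or 6.22-fold (array pairs 3.88- to 14.5-fold). The sizes depended on 4NQO array 2: without it the differences were -1.86 and 2.04 log2, and without 4NQO array 3 they were -2.78 and 2.96. The IL-1Ra arrays were all above the normal arrays, by 0.18 log2 on average, with a gap of 0.09 log2 between the highest normal and the lowest IL-1Ra array.

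The other Glrx probe set, 1367705_at, gave the same order with larger differences. Its intensity was 3425, 2600 and 3042 on normal, 355, 81.0 and 362 on 4NQO, and 3800.5, 3862 and 3610 on IL-1Ra arrays 1 to 3. Its differences were -3.78 log2 for 4NQO against normal, 4.10 for IL-1Ra against 4NQO and 0.32 for IL-1Ra against normal. The 2 probe sets therefore disagreed in size, 5.47-fold against 13.8-fold for 4NQO against normal, while ranking the 9 arrays alike. On normal and IL-1Ra arrays 1386908_at was 0.55 to 0.81 log2 above 1367705_at, and on 4NQO arrays 1.87 to 2.28 log2 above it.

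Expressed on the linear scale, the mean intensity in 4NQO samples was 30.8% of the normal mean for Hmox1, and 21.03% and 8.80% for the 2 Glrx probe sets. In IL-1Ra samples it was 112% for Hmox1, and 113% and 124% for Glrx. All 3 probe sets were without overlap in the first 2 comparisons. This was true of 17.6% of all probe sets lying lower in 4NQO than in normal and of 8.92% lying higher in IL-1Ra than in 4NQO. Both Glrx probe sets were also without overlap above normal in IL-1Ra, as were 19.4% of all probe sets. By limma, 312 of 31042 probe sets (1.01%) were called lower in 4NQO and also higher in IL-1Ra. The members were chosen by these comparisons, and nothing is read from the shares.

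Within the normal group Hmox1 and Glrx both ranked array 1 highest and array 2 lowest, and within the 4NQO group both ranked array 3 highest and array 2 lowest. The size of the spread differed, since the 4NQO arrays covered 0.25 log2 for Hmox1 and 1.84 log2 for Glrx. On the IL-1Ra arrays both were lowest on array 3, while Hmox1 was highest on array 1 and Glrx highest on array 2.

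The genes that handle haem and iron around Hmox1 included members that passed the test in either direction, and none of the other 3 measured enzymes of haem breakdown passed it in both comparisons with 4NQO. Of 33 measured genes of haem synthesis, breakdown, transport and iron handling, 3 rose and 2 fell with 4NQO by limma, beside 12.4% of all genes (1 probe set each) called higher and 5.08% called lower. The median difference over the list was 0.19 log2, against 0.08 over all genes, so the list's share of 15.2% called lay near that of all genes. For IL-1Ra against 4NQO, 2 rose and 0 fell (all genes: 1.91% higher, 0.753% lower), with a median of -0.10 against -0.04. For IL-1Ra against normal, 0 passed in limma (1 with trended and robust variances, and 4 higher and 0 lower at an unadjusted p under 0.05), beside 1.66% higher and 0.542% lower over all genes. The 4NQO count of 5 was 2, 2 and 1 without normal arrays 1, 2 and 3, 3 without 4NQO array 2 and 7 without 4NQO array 3. The IL-1Ra count of 2 was 1 without any one of the arrays other than 4NQO array 3, and 3 without that array. Against normal, the count of 0 was 2 without 4NQO array 2 and 3 without 4NQO array 3.

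Hmox2, the constitutive haem oxygenase, stayed between 8.05 and 8.18 log2 on normal, 7.90 and 8.23 on 4NQO and 8.10 and 8.13 on IL-1Ra arrays. Its differences were -0.11 log2 for 4NQO against normal (limma adjusted p = 0.542) and 0.09 for IL-1Ra against 4NQO (0.715). Blvra, biliverdin reductase A, which turns biliverdin into bilirubin, differed by 0.05 log2 (adjusted p = 0.882) and -0.03 (0.953), and the sign of both changed with quantile or cyclic loess normalization. Blvrb, biliverdin reductase B, a flavin reductase that is also counted among NRF2 targets, rose with 4NQO. Its values were 8.57, 8.53 and 8.70 log2 on normal, 9.10, 9.29 and 9.67 on 4NQO, and 9.33, 9.22 and 9.17 on IL-1Ra arrays 1 to 3. Blvrb was 0.76 log2 higher in 4NQO than in normal samples (adjusted p = 0.0118), without overlap, and differed by -0.11 between IL-1Ra and 4NQO (0.722).

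Of the other genes of this list, Flvcr2, a transporter of the haem exporter family, had a course of the same direction as Hmox1. Its values were 5.38, 5.35 and 5.58 log2 on normal, 4.70, 4.60 and 5.04 on 4NQO, and 6.02, 5.89 and 6.33 on IL-1Ra arrays 1 to 3. It fell by 0.65 log2 with 4NQO (adjusted p = 0.0232) and was 1.30 log2 higher in IL-1Ra than in 4NQO samples (0.00368). The fall was not called without any one normal array or without 4NQO array 1 or 2, while the rise was called under every setting tried. A further Flvcr2 probe set had a mean of 3.61 log2, near the lower quartile of the arrays (3.60 to 3.78), and can bear little on these differences.

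Flvcr1, an exporter of haem, went the opposite way with 4NQO, higher by 0.65 log2 (adjusted p = 0.0144), and this call was lost without normal array 3. Fech, ferrochelatase, which puts iron into the porphyrin ring, was 0.50 log2 higher (0.0252), a call lost without any one normal array or without 4NQO array 1 or 2. Both calls were also lost after quantile or cyclic loess normalization, and that of Fech with the 6 compared arrays alone. Slc40a1, ferroportin, the iron exporter, was 0.60 log2 lower in 4NQO than in normal samples (0.046), its other probe sets were called lower too, at -0.48 (0.0338) and -0.74 (0.0192), and no iron gene was called lower without any one array other than 4NQO array 1. Slc11a2, the iron importer DMT1, was 0.74 log2 higher in IL-1Ra than in 4NQO samples (0.0488), and by its other probe set 0.33 (0.209). That call was lost with the 6 compared arrays alone and without any one array other than 4NQO array 3. Fth1 and Ftl1, the ferritin subunits, had no probe set with a single symbol.

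**Figure D2:**
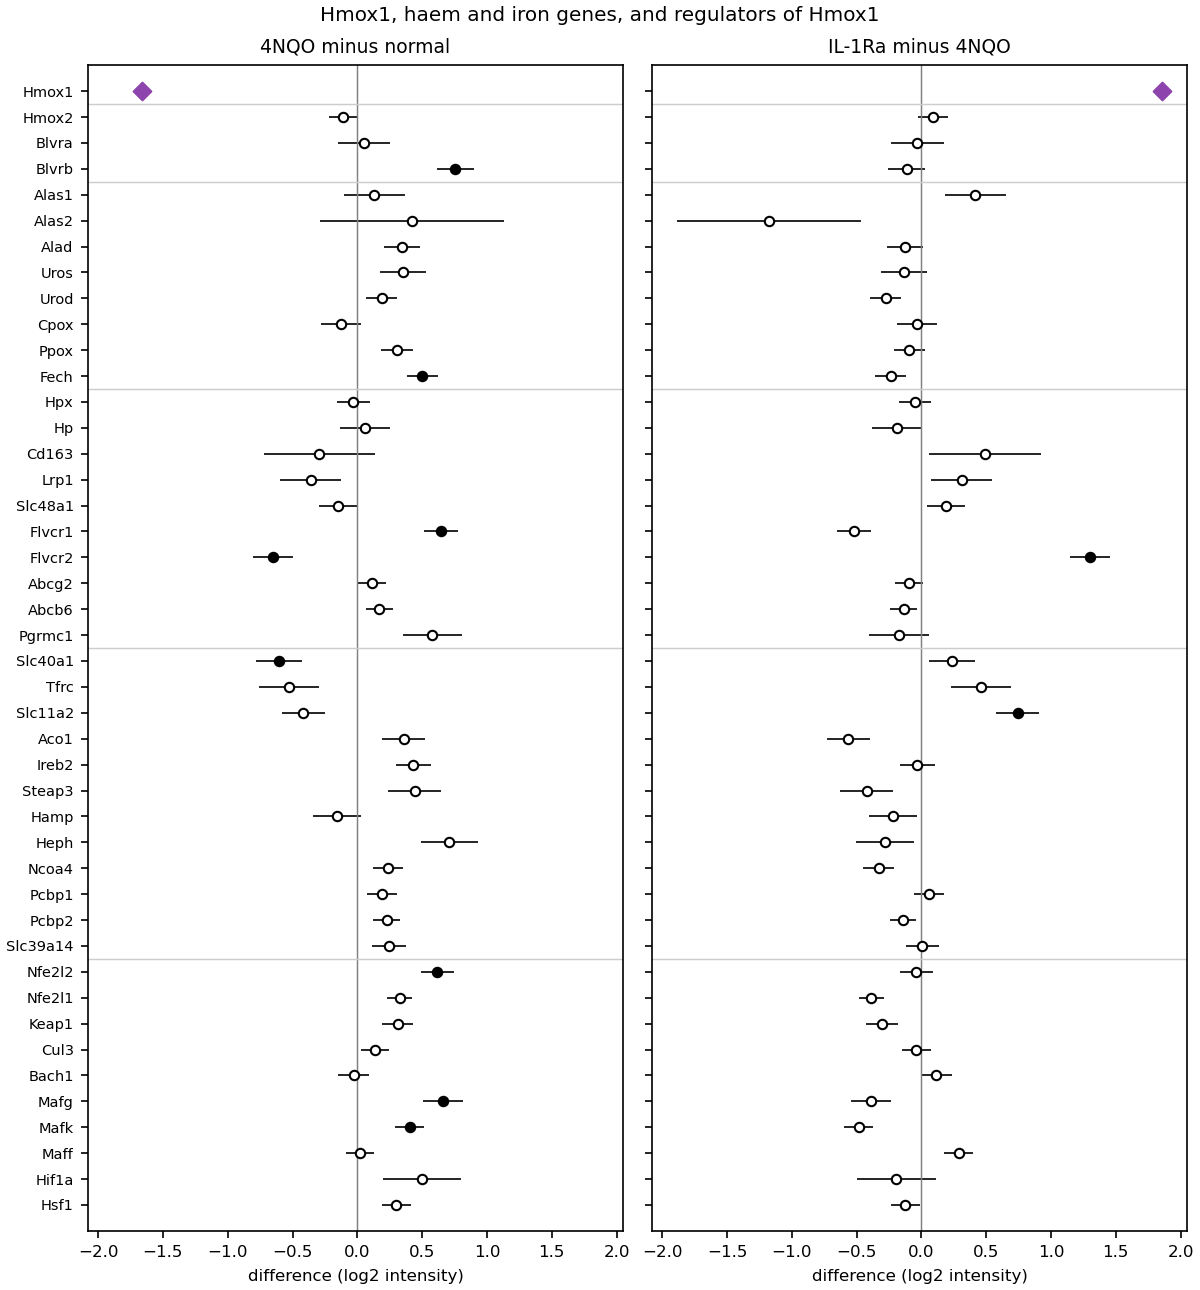
Differences in log2 intensity for Hmox1 (top, purple diamond) and the measured genes of haem synthesis, haem breakdown, haem transport, iron handling and Hmox1 regulation, for 4NQO minus normal and IL-1Ra minus 4NQO. Whiskers are limma standard errors, filled points passed at an adjusted p of 0.05, open points did not, and Hmox1 is shown without a call. Hmox1, which was chosen for these differences, lies at -1.66 and 1.86. The haem and iron genes lie between -0.65 and 0.76 and between -1.18 and 1.30.

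Of 10 measured regulators of Hmox1, 3 rose and 0 fell with 4NQO, beside 12.4% of all genes called higher and 5.08% lower, and the median difference was 0.32 log2 against 0.08 over all genes. The count was 1, 0 and 0 without normal arrays 1, 2 and 3. Nfe2l2, the gene of NRF2, had values of 9.25, 8.94 and 9.12 log2 on normal, 9.60, 9.61 and 9.95 on 4NQO, and 9.66, 9.68 and 9.69 on IL-1Ra arrays 1 to 3. It was 0.62 log2 higher in 4NQO than in normal samples (limma adjusted p = 0.0155), a call lost without normal array 2 or 3 and after cyclic loess. It differed by -0.04 between IL-1Ra and 4NQO (0.896), a sign that turned after cyclic loess.

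Mafg and Mafk, small MAF partners of both NRF2 and BACH1, were 0.66 (adjusted p = 0.0229) and 0.40 log2 (0.0427) higher with 4NQO. Both calls were lost without any one normal array, after quantile or cyclic loess normalization and with the 6 compared arrays alone. Keap1, the adaptor that leads NRF2 to degradation, differed by 0.31 log2 (0.109) with 4NQO and by -0.30 (0.213) between IL-1Ra and 4NQO. A further Keap1 probe set of lower mean was called higher with 4NQO, by 0.72 log2 (0.013), and differed by -0.28 (0.321) with IL-1Ra. A further Mafg probe set was not called, at 0.24 (0.460) and -0.11 (0.824). Bach1, the repressor of Hmox1, was dim, with 3.88 to 4.23 log2 on all 9 arrays. Its differences were -0.03 log2 (0.888) and 0.12 (0.649), and the first turned positive after quantile or cyclic loess normalization. For IL-1Ra against 4NQO, 0 regulators passed in limma with either variance model, and 1 was higher and 4 were lower at an unadjusted p under 0.05. Without 4NQO array 3, 1 was called lower. RNA levels of these regulators do not measure the activity of their proteins.

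Of 24 other measured genes that NRF2 is known to activate, 8 rose with 4NQO, 0 fell and 16 did not pass, beside 12.4% of all genes called higher and 5.08% lower. Their median difference was 0.90 log2 against 0.08 over all genes, and 23 of the 24 lay above 0. Hmox1, which was chosen for its fall with 4NQO, lay at -1.66. Mgst2, a microsomal glutathione transferase, had the lowest adjusted p of the list and was at 8.40, 8.16 and 8.44 log2 on normal, 9.50, 9.54 and 10.26 on 4NQO, and 9.84, 9.10 and 9.68 on IL-1Ra arrays 1 to 3. It was 1.44 log2 higher in 4NQO than in normal samples (adjusted p = 0.00793) and, in IL-1Ra samples, 1.21 above normal (0.044). Ephx1, microsomal epoxide hydrolase, was 0.91 log2 higher with 4NQO (0.0122), and Gsta4, a glutathione transferase for lipid aldehydes, 1.11 (0.0143, lost without normal array 3). The other 5 that rose were Blvrb, described above, Tkt, Akr1b8, Abcc1 and Ugdh.

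For IL-1Ra against 4NQO, 0 of the 24 targets passed in limma with either variance model, and 0 were higher and 2 lower at an unadjusted p under 0.05. Over all genes 1.91% were called higher and 0.753% lower. Against normal (all genes: 1.66% higher, 0.542% lower), 2 were higher in IL-1Ra samples, Mgst2 and Gsta4, both calls being lost without any one normal or IL-1Ra array, without 4NQO array 1 and after quantile or cyclic loess normalization. That count was 4 without 4NQO array 2. In that comparison the median of the 24 targets was 0.75 log2, against 0.04 over all genes, and 23 lay above 0. At an unadjusted p under 0.05 in limma, 10 were higher and 0 lower. The count for 4NQO against normal was 4, 4 and 3 without normal arrays 1, 2 and 3, and 12 without 4NQO array 1. It was 4 after either quantile or cyclic loess normalization. Over all probe sets the higher calls in that comparison went from 2922 to 1463 and 1182, in that order.

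4NQO array 3 stood above the other 4NQO arrays for several of these targets. Gclc, the catalytic subunit of the enzyme that makes the first peptide bond of glutathione, was at 7.16, 7.30 and 9.24 log2 on 4NQO arrays 1 to 3 and at 6.50 to 6.80 on normal arrays. Its partner Gclm was at 8.19, 8.65 and 10.34 against 7.57 to 7.74. Nqo1, a quinone reductase, was at 10.34, 10.16 and 11.64 against 10.13 to 10.78. On that array Hmox1 was 181, and every normal array was at 414 or above. The part of NRF2 in the level of Hmox1 was not tested.

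None of the 3 genes passed for 4NQO against normal, with 1.25 log2 for Gclc (adjusted p = 0.0833), 1.43 for Gclm (0.0665) and 0.16 for Nqo1 (0.775). Gclc passed without 4NQO array 1 or 3 and Gclm without 4NQO array 1. Nqo1 was 0.63 log2 higher in IL-1Ra than in 4NQO samples (0.352), and 1.10 (0.0173) without 4NQO array 3. Without that array 4 of the 24 targets were higher in IL-1Ra than in 4NQO samples, and 15 were higher than in normal samples.

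Of 11 other glutaredoxins and thioredoxins that were measured, 0 passed with 4NQO and 0 with IL-1Ra in limma under either variance model. The shares over all genes were 12.4% higher and 5.08% lower with 4NQO, and 1.91% and 0.753% with IL-1Ra. With only 11 genes, a count of 0 cannot be set apart from these shares. At an unadjusted p under 0.05, 2 were higher and 1 lower with 4NQO and 0 differed with IL-1Ra. Without 4NQO array 3, 1 was called higher with 4NQO and 1 lower with IL-1Ra. Their differences lay between -0.33 and 0.39 log2 with 4NQO and between -0.29 and 0.26 with IL-1Ra.

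Glrx2, the mitochondrial dithiol glutaredoxin, was at 9.32 to 9.51 log2 on all 9 arrays. It differed by 0.07 log2 with 4NQO (limma adjusted p = 0.652), a sign that turned after quantile or cyclic loess normalization, and by 0.01 with IL-1Ra (0.970). Glrx3, a cytosolic monothiol glutaredoxin, differed by 0.34 (0.0877) and -0.04 (0.894), and the second sign turned after cyclic loess. Glrx5, which hands on iron-sulfur clusters in mitochondria, differed by -0.18 (0.370) and -0.15 (0.579). Txn1, cytosolic thioredoxin, differed by 0.04 (0.898) and 0.26 (0.421), and its reductase Txnrd1 by 0.25 (0.349) and -0.14 (0.726).

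Of all 40 measured thiol redox genes, 2 rose and 1 fell with 4NQO, 1 rose with IL-1Ra over 4NQO, and 1 was higher and 1 lower in IL-1Ra than in normal samples. Over all genes the shares were 12.4% and 5.08%, 1.91% and 0.753%, and 1.66% and 0.542%, higher and lower in that order, and the list's 7.5% with 4NQO was below the sum of the first pair. The medians were 0.04, -0.00 and 0.07 log2. The enzymes that make and recycle glutathione, the cofactor of Glrx, held both genes that rose with 4NQO. Gss, glutathione synthetase, was at 6.29, 6.08 and 6.29 log2 on normal and 7.17, 6.97 and 8.32 on 4NQO arrays, 1.27 log2 higher (adjusted p = 0.0217). Oplah, which opens 5-oxoproline to glutamate in the same cycle, was 0.62 log2 higher (0.0221). Gss lost its call without any one normal array and after cyclic loess, and Oplah without normal array 1 or 3 and after either scaling.

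Gsr, glutathione reductase, which regenerates the cofactor of Glrx, differed by 0.61 log2 (0.117) with 4NQO and by 0.09 (0.876) with IL-1Ra. Gpx8, a peroxidase of the endoplasmic reticulum, was 0.65 log2 lower with 4NQO (0.0237), a call lost without normal array 2 or 3 or 4NQO array 2 or 3. Ggct, which releases 5-oxoproline from gamma-glutamyl amino acids, was the gene that rose with IL-1Ra. Its values were 7.20, 7.07 and 7.12 log2 on normal, 7.13, 7.26 and 7.11 on 4NQO and 7.89, 7.79 and 7.83 on IL-1Ra arrays 1 to 3.

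Ggct in IL-1Ra samples was 0.67 log2 above 4NQO (0.00959) and 0.70 above normal (0.0345), while 4NQO differed from normal by 0.04 log2 (0.812). The call against normal was lost without any one normal or IL-1Ra array. A further Ggct probe set had a mean of 3.53 log2, below the lower quartile of every array, and can bear little on this. Catalase (Cat) was 0.69 log2 lower in IL-1Ra than in normal samples (0.0469), and this call was lost without any one normal or IL-1Ra array or 4NQO array 1. The count of 3 with 4NQO was 1, 1 and 0 without normal arrays 1, 2 and 3, 8 without 4NQO array 1, 4 without 4NQO array 2 and 5 without 4NQO array 3. With IL-1Ra over 4NQO, the count of 1 was 2 without 4NQO array 1 and 3 without 4NQO array 3. Against normal, the count of 2 was 8 without 4NQO array 3, 1 without 4NQO array 1 and 0 without any one normal or IL-1Ra array.

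**Figure D3:**
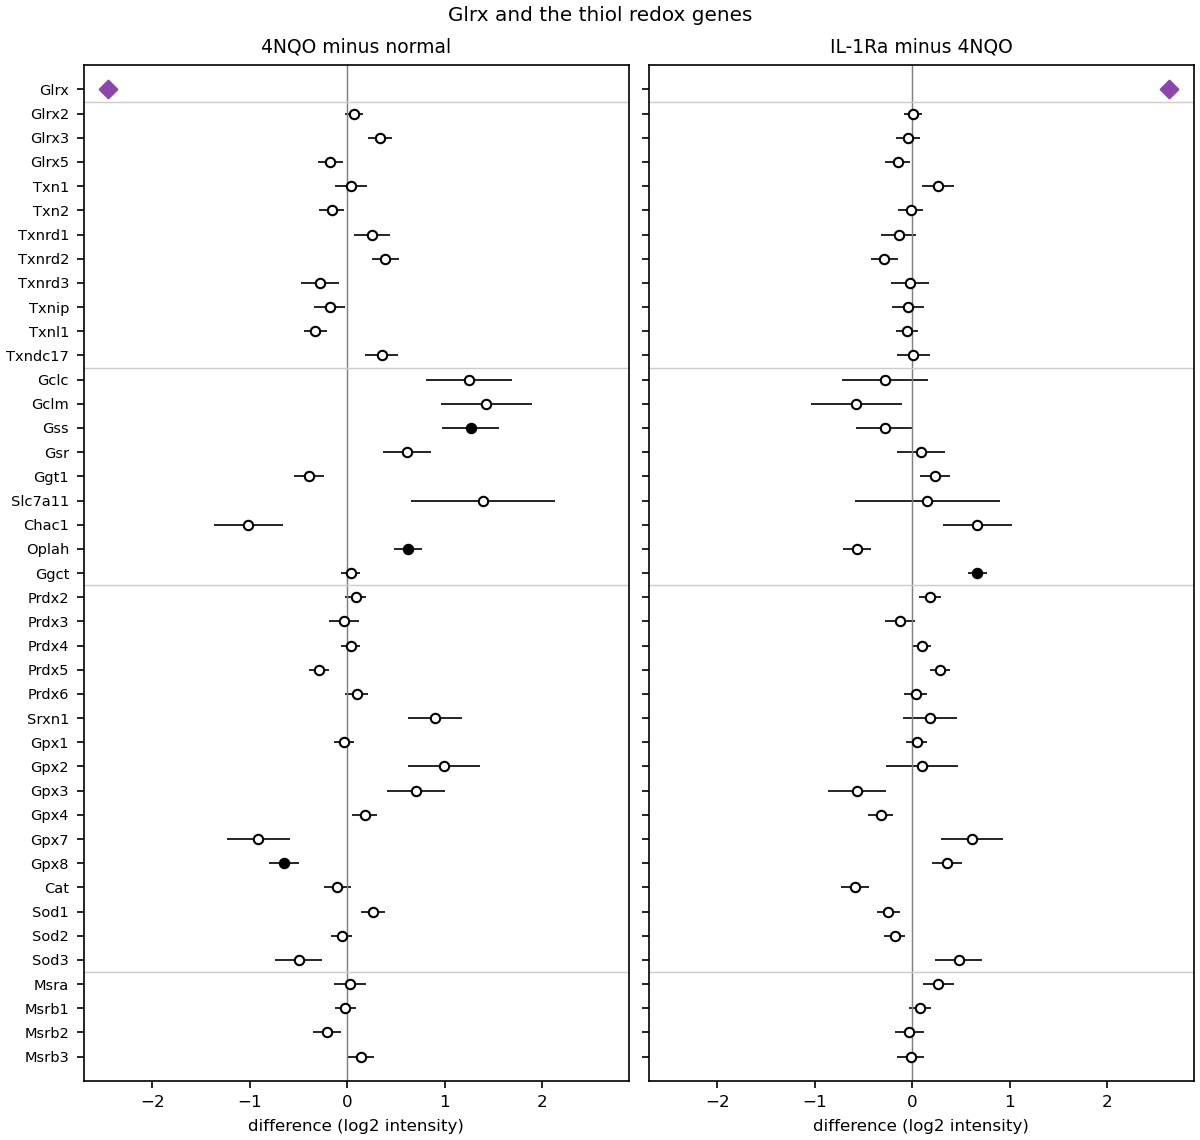
Differences in log2 intensity for Glrx (top, purple diamond) and the measured thiol redox genes, for 4NQO minus normal and IL-1Ra minus 4NQO. Whiskers are limma standard errors, filled points passed at an adjusted p of 0.05, open points did not, and Glrx is shown without a call. Glrx, which was chosen for these differences, lies at -2.45 and 2.64. The other glutaredoxins and thioredoxins lie between -0.33 and 0.39 and between -0.29 and 0.26.

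The genes most like Hmox1 over the 9 arrays, by Pearson's r of log2 values among 14216 genes, were LOC102549828 (0.984), Rnf227 (0.981), Ide (0.980), Rnf223 (0.977) and Natd1 (0.976). Rnf227 and Rnf223 are RING finger genes, and Ide encodes insulin-degrading enzyme. Rnf227 was at 8.65 ± 0.58 log2 (SD, n = 3) in normal, 5.81 ± 0.63 in 4NQO and 9.20 ± 0.05 in IL-1Ra samples. Ide was at 10.97 ± 0.15, 10.23 ± 0.13 and 11.25 ± 0.02 in the same order. The 9 points share 3 groups, so r mainly reflects the group pattern, and all genes share the arrays. Over deviations from the group means, the 5 genes had r of 0.72 to 0.87 with Hmox1.

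The genes most like Glrx were Krt78 (0.996), a keratin, Lce3b (0.995), a late cornified envelope protein, Ppl (0.994), periplakin of the cornified envelope, Ly6g6c (0.993) and Gdpd3 (0.992). Krt78 was at 11.45, 10.92 and 11.41 log2 on normal, 9.58, 7.74 and 9.45 on 4NQO and 11.38, 11.55 and 11.45 on IL-1Ra arrays 1 to 3. Like Glrx, it was lowest on 4NQO array 2, as were Hmox1 and the 5 genes most like Hmox1. Ppl was at 11.58 ± 0.04 (SD, n = 3) in normal, 9.93 ± 0.87 in 4NQO and 11.86 ± 0.07 in IL-1Ra samples. The deviations of the 5 genes from their group means had r of 0.96 to 0.997 with those of Glrx. The SD of Glrx was 1.03 in 4NQO, against 0.09 in normal and 0.03 in IL-1Ra samples. These r therefore rest mainly on the 4NQO arrays, above all array 2.

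Glrx itself ranked 70 in likeness to Hmox1 (r = 0.93), and Hmox1 ranked 126 in likeness to Glrx. Both were chosen for a shared group pattern. Over deviations from the group means their Pearson's r was 0.35 and their Spearman's rho 0.80, so the 2 measures differed. Hmox1 varied most among the normal arrays and Glrx among the 4NQO arrays. There were 134 genes with r above 0.9 to Hmox1 and 211 to Glrx. By Spearman's rho, 0 of the 5 genes most like either gene were among its first 5. By deviations alone, 0 remained for Hmox1 and 1 for Glrx, so these names hold for the measure stated. Without 4NQO array 2, 1 of the 5 genes remained for Glrx.

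**Figure D4:**
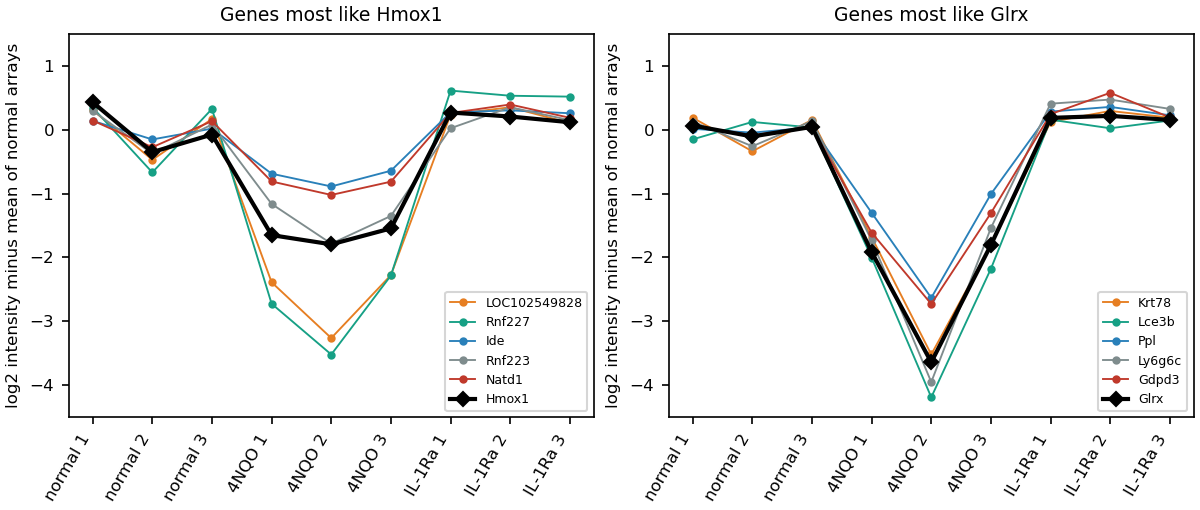
Log2 intensity minus the mean of the normal arrays on each of the 9 arrays, for Hmox1 and Glrx (black diamonds) and the 5 genes most like each by Pearson's r. Lines join the arrays for reading only. All series drop on the 4NQO arrays, and in both panels every series is lowest on 4NQO array 2.

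Of 19 measured markers of the suprabasal and cornified layers of the epithelium, 8 fell and 0 rose with 4NQO (median -1.31 log2), beside 12.4% of all genes called higher and 5.08% lower. With IL-1Ra over 4NQO, 6 rose and 0 fell (median 1.68), beside 1.91% of all genes called higher and 0.753% lower. The part of these layers in the levels of Hmox1 and Glrx was not tested. The summed intensity of the 19 markers was 62159 to 74454 on normal, 21958 to 52930 on 4NQO and 80436 to 84074 on IL-1Ra arrays, and no marker was below the lower quartile of all probe sets on all arrays. The lowest sum was on 4NQO array 2, where both Glrx and Hmox1 were lowest. The sums of fibroblast (4621) and macrophage markers (1596) were also lowest on that array, and those of the other cell types below were lowest on other arrays. The median r of the suprabasal markers over 9 arrays was 0.94 with Glrx and 0.81 with Hmox1. For fibroblast markers it was 0.82 and 0.69, for macrophage markers 0.62 and 0.46, and for endothelial markers -0.78 and -0.73. It was also negative for basal keratinocyte, erythroid, neutrophil and skeletal muscle markers. Over deviations from group means the median r with Hmox1 was 0.56 for suprabasal, 0.65 for basal, 0.01 for fibroblast and -0.10 for macrophage markers. With Glrx it was 0.92, 0.45, 0.73 and 0.53 in the same order. For the other lists it was between -0.29 and 0.02 with Hmox1 and between -0.55 and -0.11 with Glrx. The r of deviations with Glrx rest mainly on the 4NQO arrays, above all array 2.

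Among them, Kprp, a keratinocyte protein rich in proline, differed by -4.38 log2 with 4NQO and 4.58 with IL-1Ra (limma adjusted p = 0.00424 and 0.00372). Ivl, involucrin, differed by -2.35 and 2.50 log2 (0.0105 and 0.0182). Krt4 and Krt13, the keratins of the lining epithelium, differed by -0.28 and -0.33 log2 with 4NQO (0.172 and 0.110). They were very bright, at 13.42 to 13.48 and 13.51 to 13.58 log2 on normal arrays, so their differences may be compressed. Krt1, a keratin of cornified epithelium, was at 7.47, 6.77 and 7.70 log2 on normal, 9.08, 6.73 and 11.71 on 4NQO, and 10.57, 9.37 and 10.57 on IL-1Ra arrays 1 to 3. It differed by 1.86 log2 with 4NQO (0.208) and was 2.85 above normal in IL-1Ra samples (0.125), without overlap. Sprr1b, a small proline-rich envelope protein, differed by 0.16 log2 with 4NQO (0.851) and by 1.52 between IL-1Ra and normal (0.124). The markers thus did not all move alike. The 4NQO count of 8 was 5 without normal array 3 and 13 without 4NQO array 3, and without 4NQO array 2 there were 10 that fell and 2 that rose. The IL-1Ra count of 6 was 3 without IL-1Ra array 1 or 2, 4 without IL-1Ra array 3 and 16 without 4NQO array 3.

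**Figure D5:**
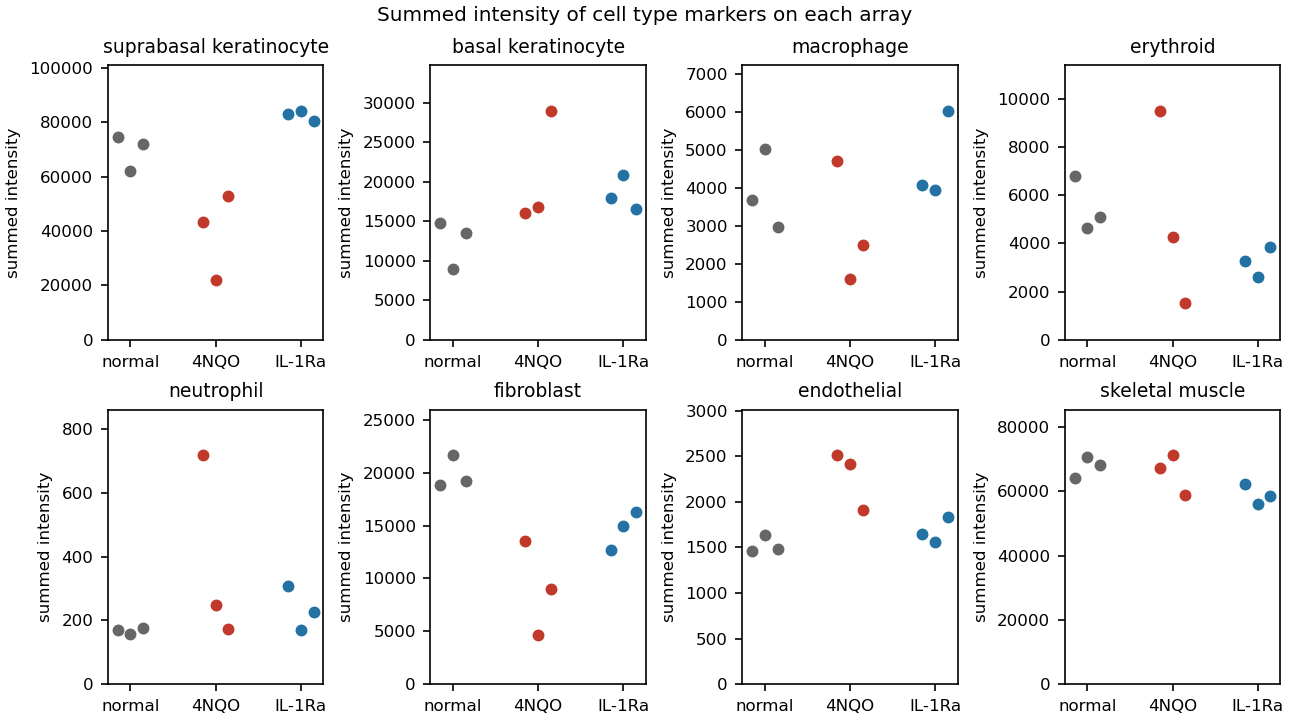
Summed intensity of the markers of 8 cell types on each array, by group. Points are arrays and each panel starts at 0. The suprabasal keratinocyte sum is lowest on the 4NQO arrays, at 21958 to 52930, while the macrophage sums of the 3 groups overlap.

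For the lists below, the shares over all genes were again 12.4% higher and 5.08% lower with 4NQO and 1.91% and 0.753% with IL-1Ra. Of 9 basal keratinocyte markers, 5 were higher and 0 lower in 4NQO than in normal samples, with sums of 8934 to 14741, 16070 to 28979 and 16634 to 20943 in normal, 4NQO and IL-1Ra samples. The count was 2 without normal array 2 or 3. Of 9 fibroblast markers, 6 were lower in 4NQO (median -1.13 log2) and 0 passed between IL-1Ra and 4NQO in limma (5 higher and 0 lower at an unadjusted p under 0.05, median 0.71). Their sums were 18821 to 21659, 4621 to 13577 and 12736 to 16304, and the count of 6 was 1 without any one normal array. Without 4NQO array 1, 2 were higher in IL-1Ra than in 4NQO samples.

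Macrophage markers, which bear on Hmox1, had sums of 2975 to 5011 on normal, 1596 to 4719 on 4NQO and 3937 to 6020 on IL-1Ra arrays. Of 14 markers, 1 rose with 4NQO (Mertk) and 0 fell, with a median of -0.41 log2. No macrophage marker was called higher without any one array other than 4NQO array 1 or IL-1Ra array 3, and without 4NQO array 1 there were 5 markers that fell. For IL-1Ra against 4NQO, 0 passed in limma, 3 were higher and 1 lower at an unadjusted p under 0.05, the median was 0.65, and 3 rose without 4NQO array 1. Hmox1 on 4NQO array 1 was 168, between the other 4NQO arrays.

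Of 5 erythroid markers, which follow blood in the tissue, 0 passed in the 3 comparisons (0 also at an unadjusted p under 0.05), and their sums were 4628 to 6789, 1536 to 9484 and 2602 to 3855. Without 4NQO array 3, 1 rose with 4NQO and 2 fell with IL-1Ra. Of 7 endothelial markers, 4 rose with 4NQO (sums 1462 to 1641, 1913 to 2511 and 1564 to 1830), and 2 did so without normal array 1 and 0 without normal array 3. Of 6 neutrophil markers, Cxcr2, a chemokine receptor, was called higher in IL-1Ra than in 4NQO samples (1.39 log2, limma adjusted p = 0.0351). No neutrophil marker was called higher without any one normal or IL-1Ra array. Neutrophil sums were 158 to 177, 174 to 718 and 170 to 308, and 1 neutrophil marker, Mmp8, was below the lower quartile of all probe sets on all arrays. Of 10 skeletal muscle markers, Tnnt1, slow troponin T, was called lower in IL-1Ra than in 4NQO samples (-1.82 log2, 0.0486), and no muscle marker was called without any one array other than 4NQO array 1 or 3. Skeletal muscle sums were 64097 to 70809, 58803 to 71247 and 56200 to 62353. The part of any of these cell types in the levels of Hmox1 and Glrx was not tested.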

How the data were processed

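The authors processed the arrays with Affymetrix Expression Console and RMA (so the submitters' processing notes, without versions) and deposited 1 linear intensity per probe set and array. RMA scales the arrays to one another, so that a shift shared by most genes would be hidden. The deposited distributions were still not equal. Their upper quartile was 7.04 to 7.08 log2 on normal, 7.21 to 7.28 on 4NQO and 7.16 to 7.26 on IL-1Ra arrays. Of 31099 probe sets, 57 controls were left out and 31042 were tested without a filter; 20826 had 1 symbol, 436 several and 9780 none, and 20758 matched the RefSeq gene table. Here log2 of the deposited intensity was fitted with 3 group means over 9 arrays in limma 3.58.1 (R 4.3.3; eBayes, 6 residual and 4.01 prior degrees of freedom), two-sided, with Benjamini-Hochberg adjustment per comparison over all probe sets and a threshold of 0.05. Each gene with several probe sets was read from the one of highest mean. Folds are powers of 2 of differences in mean log2. Python 3.11.15 with pandas 2.3.3 and matplotlib 3.10.9 made the tables and figures.

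The members and the gene lists were chosen with earlier results of these data known. Named genes were Hmox1, Glrx and 15 relatives set by name, up to 4 called genes with the lowest adjusted p per list and comparison, and the 5 genes with the highest r to each member; single markers and probe sets named outside this rule were chosen after their values were seen. Alternatives were quantile and cyclic loess scaling, leaving out the 40% dimmest probe sets, trended and robust variances, the 6 arrays compared only, any probe set of a gene, other measures of likeness and leaving out each array. The fit was checked on simulated data. With 3 arrays per group, their number limits the precision of every value.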

Additional observations from a re-analysis of the deposited data

How the results depend on the processing

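Hmox1 and Glrx kept the direction of their differences with 4NQO under every setting tried. This is no check, since both genes were chosen for these directions. Without overlap of the arrays, leaving out a single array cannot turn a sign. Leaving out single arrays gave -1.84 to -1.45 log2 for Hmox1 and -2.78 to -1.86 for Glrx (4NQO minus normal), 1.79 to 1.92 and 2.04 to 2.96 (IL-1Ra minus 4NQO), and 0.02 to 0.41 and 0.13 to 0.22 (IL-1Ra minus normal); the other Glrx probe set gave -3.78, 4.10 and 0.32. No paired analysis was possible because the labels give no replicate number shared between groups. Calls in 4NQO minus normal moved for NRF2 targets from 8 to 4 (quantile), 4 (cyclic loess) and 5 (6 arrays), for haem and iron from 5 to 3 (6 arrays) and 8 (any probe set), and for markers from 24 to 15 (cyclic loess). Over all probe sets, higher calls in that comparison went from 2922 to 1463 (quantile) and 1182 (cyclic loess). Lower calls went from 1688 to 1358 and 1298. In IL-1Ra minus 4NQO, the 6-array fit moved haem and iron from 2 to 1, thiol redox from 1 to 0 and markers from 8 to 5, and trended variances moved thiol redox to 2. In IL-1Ra minus normal, thiol redox went from 2 to 1 (quantile), 0 (cyclic loess) and 8 (6 arrays), NRF2 targets from 2 to 0, 0 and 15, haem and iron from 0 to 1 (dim filter), 1 (trended variances) and 5 (6 arrays), and markers from 0 to 2, 1 and 11. Leaving out single arrays gave, over the 3 comparisons in this order, 1 to 7, 1 to 3 and 0 to 3 calls for haem and iron, 0 to 8, 1 to 3 and 0 to 8 for thiol redox, 3 to 12, 0 to 4 and 0 to 15 for NRF2 targets, and 8 to 31, 3 to 23 and 0 to 7 for markers. Shares over all genes are not given for left-out arrays, so these changes cannot be told from changes over all genes. Of the 5 genes most like each member, 3 were kept for Glrx after quantile scaling, 1 by deviations and 0 by rho, and 1 to 4 without single arrays; for Hmox1 0 were kept by deviations and by rho, and 2 to 4 without single arrays. Small differences that were not called changed sign. With 4NQO minus normal, Blvra became -0.11 under quantile and -0.11 under cyclic loess scaling (-0.11 to 0.30 without single arrays), Bach1 0.095 and 0.096 (-0.14 to 0.033), and Glrx2 -0.050 and -0.095. Without single arrays Txn1 ran from -0.14 to 0.19 and Nqo1 from -0.31 to 0.44. With IL-1Ra minus 4NQO, Blvra became 0.00085 and 0.027 (-0.14 to 0.067), and under cyclic loess Nfe2l2 became 0.040 (-0.10 to 0.075) and Glrx3 0.034 (-0.12 to 0.073). Without single arrays Glrx2 ran from -0.025 to 0.032, Gsr from -0.10 to 0.43, Blvrb from -0.24 to 0.045, Gclc from -0.65 to 0.39 and Gclm from -1.01 to 0.063. The cause of these changes was not tested. In the other settings, 24 of the values of single genes fell short of the threshold with the direction kept and 204 kept both direction and side of it.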
